A study of Brassica napus with 12 samples.

Results

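The 200 most stable polysomal transcripts are the gene IDs whose share of the ribosome-bound mRNA of the canola leaf varied least over 12 libraries. They were chosen by their measured values. Counts were set against the column total as counts-per-million (CPM) values and put on the scale log2(CPM + 0.5). The 100 IDs with the highest mean CPM were left out, and among the 6965 remaining IDs with a mean of 20 CPM or more, called candidates here, the 200 with the smallest standard deviation (SD) over all 12 libraries were taken. They are 200 of 60756 IDs in all and 2.87% of the candidates. Every member was abundant enough to enter the tests across all IDs.

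Canola (Brassica napus) is a polyploid oil crop, in which many genes exist as near-identical copies. Leaf 4 of 26-day-old plants of the form L. spp. oleifera (Metzg) Sinsk. f. biennis was sampled after 2 weeks on agar and 12 days in soil, and no group was treated. The 5 groups belong to 2 experiments. A PEG control and the epilines PEG-1 and PEG-2, with 2 libraries each, make up the first, and an EUE control and the EUE epiline, with 3 libraries each, the second. The design text speaks of triplicates, which does not match the 2 libraries of each PEG group analysed here. The epilines are each a single line, selected because their respiration was low and their NAD(P)H content high. The labels call the libraries biological replicates and do not say whether plants were pooled. The labelled leaf could not be checked against marker genes, because the IDs carry no gene names.

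Ribosomes load onto an mRNA in series to form a polysome, so the polysomal level of a transcript depends both on how much of it is present and on how much of it is being translated. Transcripts that hold a steady share of this pool are of practical use as references, against which the level of other transcripts can be set in the same tissue. Steadiness is always relative to a scale: a transcript that keeps its share of all counts changes on another scale if the most abundant transcripts take more or less of the pool. In whole leaves, fewer cells of a type and less RNA per cell cannot be told apart. No gene name, function or sequence could be given for any member, since 0 of the IDs matched the RefSeq gene table of the species. A list of plant reference genes (actin, ubiquitin and others) could not be looked up for the same reason.

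The steadiest member was ERF58900, an ID with a single number. Its level was 22.7 and 23.2 CPM in the PEG control, 21.8 and 23.3 CPM in PEG-1, 22.7 and 22.8 CPM in PEG-2, 22.5, 21.2 and 21.1 CPM in the EUE control and 22.2, 23.4 and 22.4 CPM in the EUE epiline. All 5 groups overlapped with at least one other, and the highest library was 1.11 times the lowest. Over the 12 libraries the mean was 22.5 ± 0.750 CPM (SD, n = 12), and the SD on the log2 scale was 0.0476. Counting error alone would give an SD of 0.0697 if each read pair was 1 independent count, or 0.0493 if each deposited count was. ERF58900 was picked as the smallest SD of 6965, so its place below these values is part of the choice and supports nothing.

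The next member, ERF88675-ERC27933, was about 2 times as abundant by count. It was at 44.9 and 49.8 CPM in the PEG control, 44.9 and 45.1 CPM in PEG-1, 45.9 and 45.2 CPM in PEG-2, 48.5, 45.3 and 45.8 CPM in the EUE control and 46.3, 42.9 and 46.0 CPM in the EUE epiline. PEG control replicate 2 was the highest library and EUE epiline replicate 2 the lowest, and its SD on the log2 scale was 0.0546. ERF72236-ERC28869 came next, at 29.8 and 33.2 CPM in the PEG control, 31.3 and 31.1 CPM in PEG-1, 31.0 and 29.7 CPM in PEG-2, 34.5, 30.1 and 32.1 CPM in the EUE control and 31.5, 31.5 and 32.2 CPM in the EUE epiline. Here the 3 epiline libraries lay within the range of the EUE control, and the SD was 0.0626.

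ERF57298-ERC55808 lay between 42.3 and 47.2 CPM in 11 libraries and lower in 1. Its values were 45.3 and 46.2 CPM in the PEG control, 45.003 and 44.2 CPM in PEG-1, 46.3 and 42.3 CPM in PEG-2, 46.3, 44.5 and 46.9 CPM in the EUE control and 47.2, 40.1 and 45.3 CPM in the EUE epiline. The value of 40.1 CPM came from EUE epiline replicate 2, and without that library the SD fell from 0.0667 to 0.0453. ERF95565-ERC30690 was at 21.4 and 20.2 CPM in the PEG control, 22.2 and 20.4 CPM in PEG-1, 22.4 and 18.9 CPM in PEG-2, 21.7, 20.5 and 21.6 CPM in the EUE control and 21.9, 21.9 and 21.8 CPM in the EUE epiline. PEG-2 held both its highest and its lowest library. Its SD of 0.0695 was below the 0.0717 of read-pair counting, and it and ERF58900 were the only 2 of the 200 for which this was so. With each deposited count as 1 independent count, counting error would be 0.0507, below the SD of ERF95565-ERC30690.

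**Figure D1:**
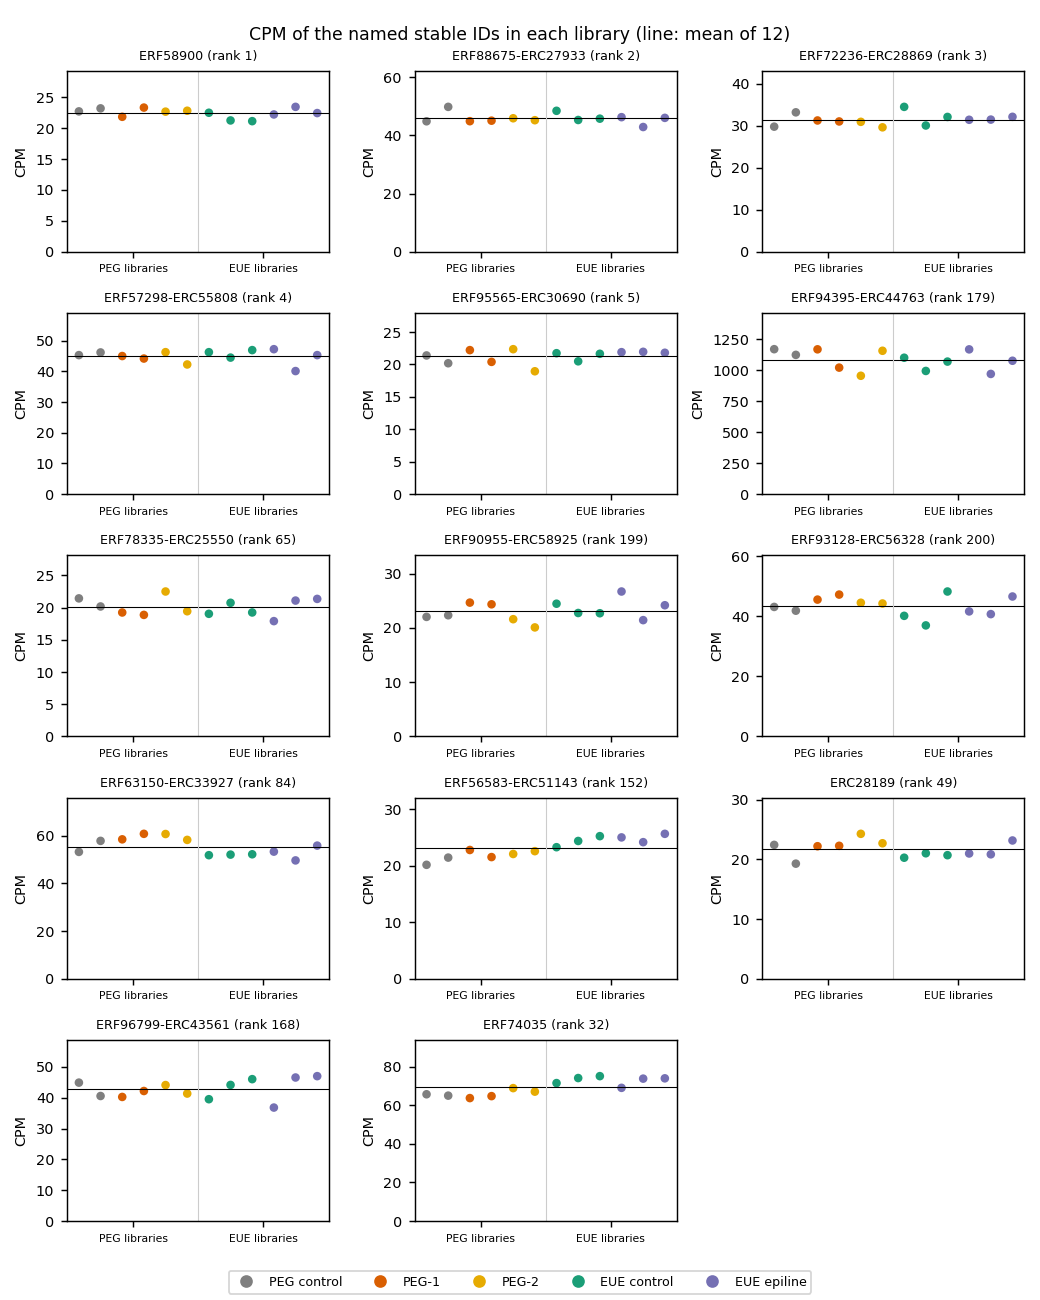
CPM (linear axis from 0) of the named stable IDs in each of the 12 libraries, coloured by group, with the mean of the 12 libraries as a line. The points of ERF58900 run from 21.1 to 23.4 CPM, and in ERF74035 and ERF56583-ERC51143 the 6 EUE libraries all lie above the 6 PEG libraries.

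Across the 200, the SD on the log2 scale ran from 0.0476 to 0.110 with a median of 0.100, against a median of 0.286 over the candidates. The highest library was 1.11 to 1.37 times the lowest, with a median of 1.26, and all 200 stayed under 1.5 times. Of the candidates 19.5% did so. As a coefficient of variation of CPM, the members' median was 6.96% and the candidates' 19.97%. These values chose the members and are a description. The limit of the list was not a gap in the data. The last members, ERF90955-ERC58925 at 23.1 ± 1.81 CPM (SD, n = 12) and ERF93128-ERC56328 at 43.4 ± 3.30 CPM (SD, n = 12), and the first IDs outside, ERF66016-ERC44967 at 50.0 ± 3.81 CPM (SD, n = 12) and ERF69451 at 44.5 ± 3.46 CPM (SD, n = 12), all had an SD of 0.110.

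**Figure D2:**
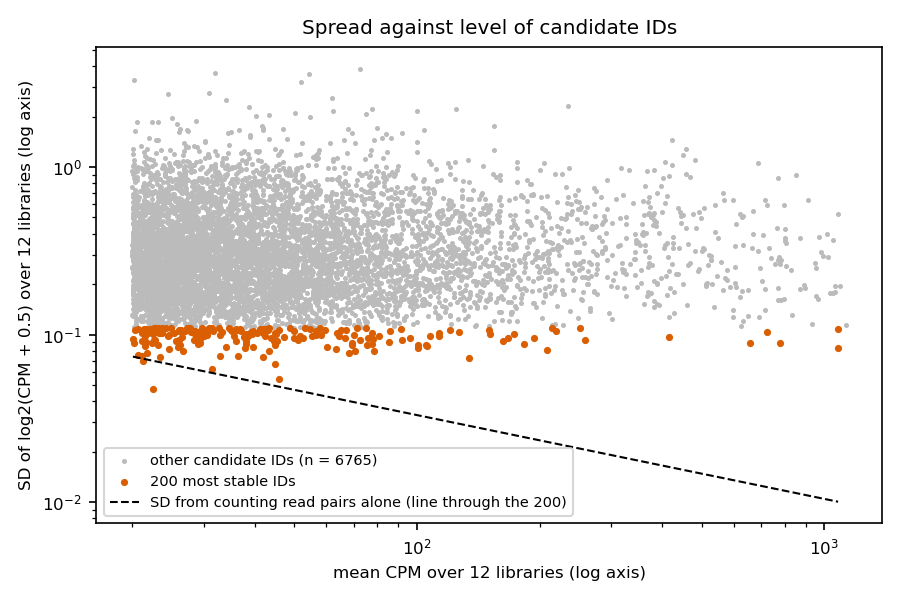
SD of log2(CPM + 0.5) over the 12 libraries against mean CPM, both on log axes, for the 200 members (orange) and the 6765 other candidates (grey), with the SD that counting read pairs alone would give as a dashed line. The members lie at all levels from 20.1 to 1081 CPM, below an SD of 0.110.

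Stable IDs were found at all levels. Mean CPM ran from 20.1 to 1081 with a median of 38.0, beside a median of 38.4 over the candidates. The rule took 2.98% of the candidates from 20 to 50 CPM, 2.62% of those from 50 to 100, 2.79% of those from 100 to 200 and 2.68% of those at 200 CPM or more. Counts are not set per length, so levels of different IDs do not rank their transcript numbers. The lowest count of any member in any library was 664. Read-pair counting would give the members a median SD of 0.0537, and the median share of a member's variance of this size was 29.6%, against 3.06% over the candidates.

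ERF94395-ERC44763, the member with the highest mean, was at 1169.7 and 1124 CPM in the PEG control, 1169 and 1021 CPM in PEG-1, 955 and 1157 CPM in PEG-2, 1101, 994 and 1069.6 CPM in the EUE control and 1168, 970.0 and 1076 CPM in the EUE epiline. Each epiline overlapped its own control, while the PEG control lay above the EUE control, and its SD of 0.108 stood beside a counting SD of 0.0101, so here nearly all of the spread was between libraries and not from read sampling. At the other end, ERF78335-ERC25550 averaged 20.1 ± 1.35 CPM (SD, n = 12), from 17.9 CPM in EUE epiline replicate 1 to 22.5 CPM in PEG-2 replicate 1. Its SD of 0.0940 stood beside a counting SD of 0.0738. Among members with a single number and the prefix ERC, ERC28189 was the steadiest, at 21.7 ± 1.40 CPM (SD, n = 12), from 19.3 CPM in PEG control replicate 2 to 24.3 CPM in PEG-2 replicate 1.

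Each ID consists of an ERF number, an ERC number, or the pair of them joined, and the rule did not use this class. Joined IDs made up 156 of the 200 members, 78.0%, beside 70.0% of the candidates. Single ERF IDs were 24 of the 200, 12.0% beside 17.98%, and single ERC IDs were 20, 10.0% beside 12.0%. The median SD over the candidates was 0.272 for joined, 0.327 for ERF and 0.307 for ERC IDs. The 100 most abundant IDs, which the rule left out, were joined in 81 cases. What the classes stand for is not given in the sources used here.

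Most of the members' sum of squares lay between replicates of a group, which also hold most of the degrees of freedom. The median share of a member's sum of squares was 69.6% between replicates within a group, 16.8% between lines of an experiment and 8.92% between the experiments. These sources hold 63.6%, 27.3% and 9.09% of the degrees of freedom. Over the candidates the median share between the experiments was 26.4%. The rule keeps out IDs that differ between the experiments, so the members' lower share is part of the choice. The root mean square of the members was 0.101 between replicates, 0.0779 between lines and 0.0941 between experiments, and that of the candidates was 0.254, 0.160 and 0.452.

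ERF96799-ERC43561 had the largest spread between replicates among the members. Its level was 44.9 and 40.6 CPM in the PEG control, 40.3 and 42.2 CPM in PEG-1, 44.1 and 41.4 CPM in PEG-2, 39.5, 44.2 and 46.0 CPM in the EUE control and 36.8, 46.6 and 47.0 CPM in the EUE epiline. In both EUE groups replicate 1 was the lowest library. ERF74035 had the smallest spread between replicates. It was at 65.7 and 65.0 CPM in the PEG control, 63.7 and 64.7 CPM in PEG-1, 68.9 and 67.1 CPM in PEG-2, 71.5, 74.1 and 75.1 CPM in the EUE control and 69.0, 73.8 and 74.0 CPM in the EUE epiline, so the PEG and EUE libraries did not overlap. Within its groups the SD on the log2 scale was 0.0380, below the 0.0397 of read-pair counting.

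On column totals, libraries of the 2 experiments stood wholly apart for 3 of the 200 members, 1.5%, and for 12.1% of all 36410 tested IDs. All 3 were lower in the PEG libraries and 0 higher, beside 7.36% and 4.76% of the tested IDs. Beside ERF74035 these were ERF91053-ERC49700, from 655 to 719 CPM in the PEG and from 723 to 827 CPM in the EUE libraries, and ERF56583-ERC51143. The latter was at 20.2 and 21.5 CPM in the PEG control, 22.8 and 21.5 CPM in PEG-1, 22.1 and 22.6 CPM in PEG-2, 23.3, 24.4 and 25.2 CPM in the EUE control and 25.03, 24.2 and 25.7 CPM in the EUE epiline. Its mean difference on the log2 scale, PEG minus EUE, was -0.17, the most negative of the 200. ERF63150-ERC33927 had the most positive one, 0.15, with 58.2 ± 2.76 CPM (SD, n = 6) in the PEG and 52.5 ± 2.04 CPM (SD, n = 6) in the EUE libraries. Since the rule keeps out IDs that differ between the experiments, these counts say nothing further about the members. ERF91053-ERC49700 was named after its values were seen, to account for the 3.

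**Figure D3:**
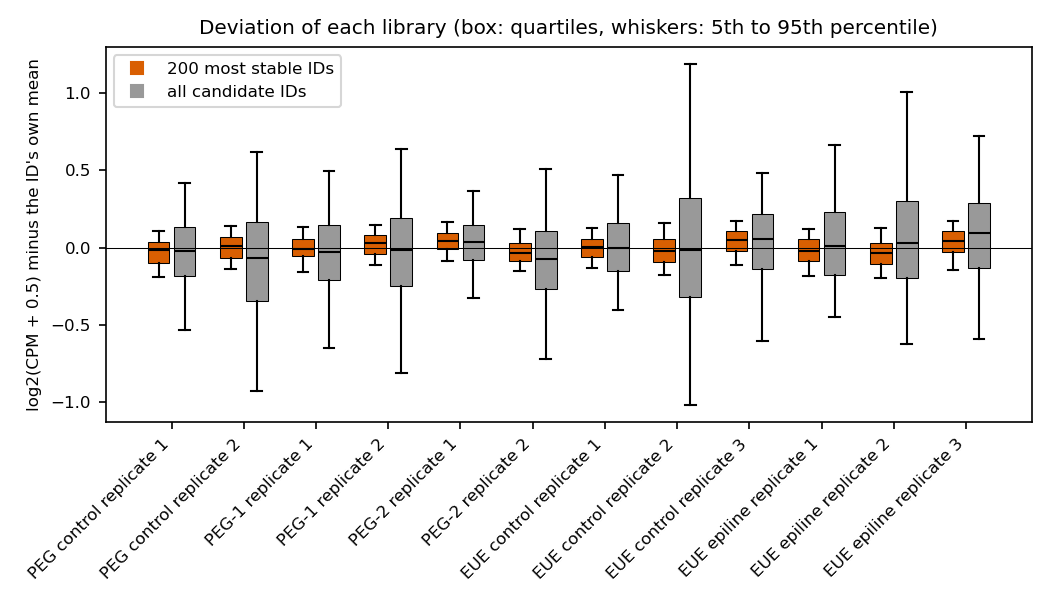
Deviation of log2(CPM + 0.5) in each library from the ID's own mean over the 12 libraries, for the 200 members (orange) and all 6965 candidates (grey), with boxes from the first to the third quartile, the median as a line and whiskers at the 5th and 95th percentiles. The members' medians lie from -0.0369 in EUE epiline replicate 2 to 0.0483 in EUE control replicate 3.

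Single libraries differed in how often they were the extreme of a member. EUE epiline replicate 3 was the highest library for 35 members, PEG-2 replicate 1 for 30 and EUE control replicate 3 for 29, while PEG-2 replicate 2 was the highest for 3. PEG control replicate 1 was the lowest library for 32 members, EUE epiline replicate 2 for 31 and EUE epiline replicate 1 for 27, while PEG-2 replicate 1 was the lowest for 2. The median deviation of the members was -0.0369 in EUE epiline replicate 2 and 0.0483 in EUE control replicate 3, and for the candidates it was lowest in PEG-2 replicate 2, at -0.0725, and highest in EUE epiline replicate 3, at 0.0925. Same-numbered EUE libraries also deviated together across the members, with r from 0.34 to 0.47 over 200 IDs, and from 0.61 to 0.79 over the 6965 candidates, which include the members and share the same libraries. Those of the PEG groups did so as well, with r from 0.14 to 0.34 over the members and from 0.56 to 0.74 over the candidates, but with 2 libraries a group the deviations of replicate 2 mirror those of replicate 1. These correlations are across IDs, which are not independent replicates.

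Together the 200 members took 1.45% to 1.55% of the counts of a library. Their summed level was 14963 and 14837 CPM in the PEG control, 15007 and 15134 CPM in PEG-1, 15068 and 14751 CPM in PEG-2, 15266, 15013 and 15450 CPM in the EUE control and 14828, 14503 and 14957 CPM in the EUE epiline. The EUE epiline libraries all lay below the EUE control libraries, with means of 14763 ± 234 CPM (SD, n = 3) and 15243 ± 220 CPM (SD, n = 3), and the highest of the 12 sums was 1.07 times the lowest. Between same-numbered libraries the epiline sum differed by -2.87%, -3.40% and -3.19% of the control. With TMM the ranges of the EUE groups overlapped, but the epiline was again the lower library in each of the 3 pairs, with differences of -6.78%, -5.29% and -9.08%, at 13844 against 14850 CPM, 13073 against 13803 CPM and 14572 against 16027 CPM. The members were chosen on these libraries, and the difference was not tested. The share of the 100 most abundant IDs varied more, from 33.8% in EUE epiline replicate 2 to 39.0% in PEG-2 replicate 2, 1.15 times.

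That share bears on the scale, and the members were steady relative to the column total. With TMM, a scaling that sets the bulk of the IDs level between libraries, the members' sum ran from 13073 to 16229 CPM, 1.24 times, and their median SD was 0.137 instead of 0.100. All 200 remained below the median SD of the candidates on this scale, 0.292. With column totals 101 members were higher in the PEG than in the EUE libraries and 99 lower, a median difference of 0.00161 on the log2 scale. With TMM, upper-quartile scaling and DESeq2 size factors 194, 198 and 196 were higher in PEG, with median differences of 0.13, 0.15 and 0.14. The candidates' median difference moved along, from -0.07 with column totals to 0.06, 0.08 and 0.07. The direction of the members between the experiments thus depends on the scaling, and the part of the abundant IDs in this was not tested.

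The list itself depends on the scaling. The same rule with TMM gave 200 IDs of which 61 are members, and upper-quartile scaling and DESeq2 size factors gave 57 and 56. A set of 48 members was in the lists of all 4 scalings. ERF58900, ERF72236-ERC28869, ERF95565-ERC30690 and ERF74035 are among these 48, while ERF88675-ERC27933 and ERF57298-ERC55808 are not. With the spread taken within groups only, 85 members were kept. With the group and the replicate number as a block, only 35 were.

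**Figure D4:**
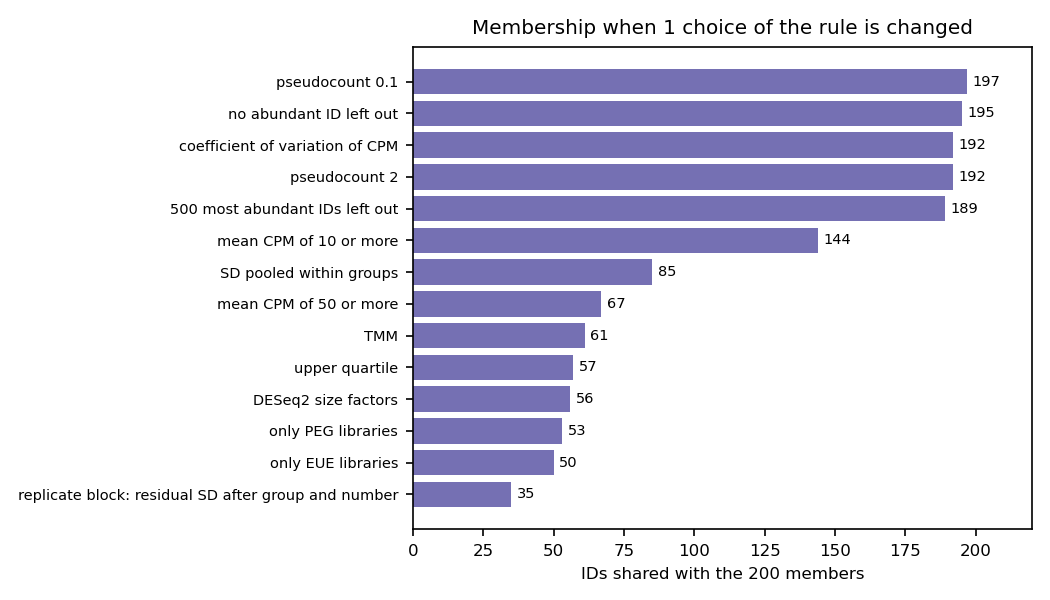
Number of the 200 members (bars, linear axis from 0) that are chosen again when 1 choice of the rule is changed. The pseudocount, the abundant IDs left out and the coefficient of variation kept 189 or more, and the 3 other scalings kept 56 to 61. A spread within groups kept 85, and a spread with the replicate number as a block kept 35.

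Whether low spread carries over to libraries that had no part in the choice was measured by leaving libraries out. The rule was run on 11 libraries, and the 200 IDs it gave were read in the library left out, as the absolute difference from their mean over the other 11. The median of this deviation was 0.0789 to 0.142 over the 12 libraries, against 0.131 to 0.346 for all candidates of the same runs. It was smaller for the chosen IDs in 12 of 12 libraries, with the candidates' median 1.49 to 2.71 times as large. The runs share most of their libraries and the 12 are not separate trials. Same-numbered libraries of the other groups, which deviated together with the left-out one over the candidates, also remained in the choice. Whether this lowered the deviations was not tested. A deviation under 0.2 was seen for 67.5% to 91.0% of the chosen IDs and for 31.8% to 68.2% of the candidates.

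The left-out libraries differed among themselves. EUE control replicate 2 had the largest deviation for both sets, 0.142 for the chosen IDs and 0.346 for the candidates, and EUE control replicate 1 the smallest for the chosen IDs, 0.0789. As a ratio, the advantage was smallest in PEG control replicate 1, 1.49 times, at 0.117 against 0.175. As a difference it was smallest in PEG-2 replicate 1, at 0.0813 against 0.131. Between 147 and 179 of the members were chosen again from 11 libraries, the fewest without EUE control replicate 2.

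**Figure D5:**
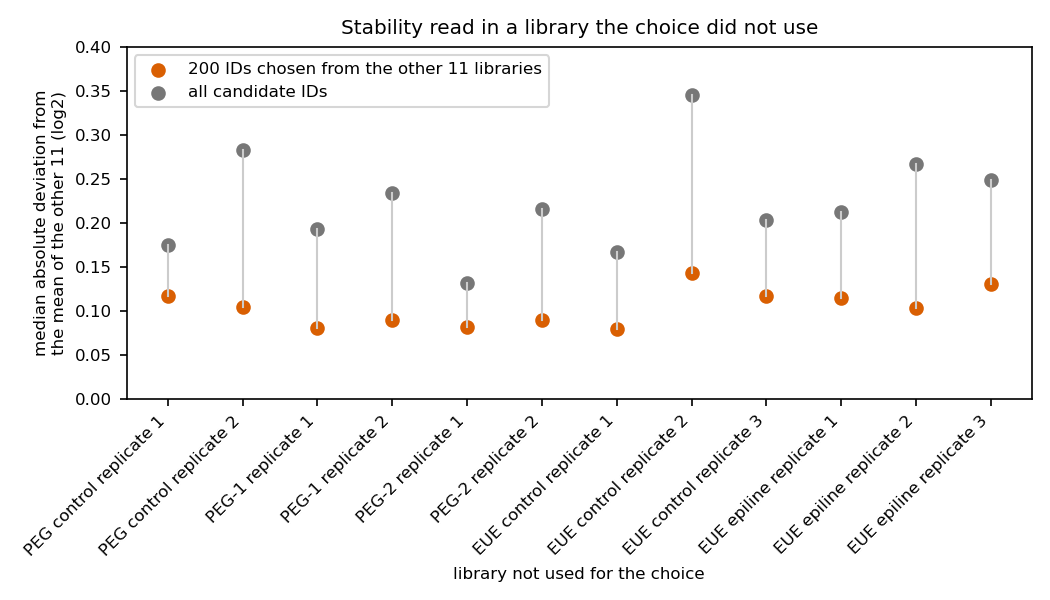
Median absolute deviation on the log2 scale (linear axis from 0) in each library when the rule was run on the other 11, for the 200 IDs chosen there (orange) and all candidates of that run (grey), joined by a line per library. The orange point is below the grey one in all 12 libraries.

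A harder reading took the IDs from 1 experiment and read them in the other. The 200 IDs chosen from the 6 PEG libraries had a median SD of 0.0593 there and of 0.167 in the 6 EUE libraries, where the candidates of that choice had 0.253. Of these 200, 174 lay below that candidate median and 10 kept to the limit of 0.0708 that had chosen them. The 200 IDs chosen from the EUE libraries had a median SD of 0.0677 there and of 0.132 in the PEG libraries, against 0.195 for their candidates, and 164 lay below the latter while 21 kept to their own limit of 0.0807. In both directions the chosen IDs remained steadier than the candidates, by 1.52 and 1.48 times, but their SD in the new libraries was above the SD that had chosen them.

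The 2 lists had 10 IDs in common, 5% of each, from 6588 candidates in the PEG and 7255 in the EUE libraries. How many IDs lists of this size share by size alone was not worked out. Of these 10, 9 are members, among them ERF58900, ERF88675-ERC27933, ERF72236-ERC28869, ERF74035, ERF63150-ERC33927 and ERF56583-ERC51143. On column totals, the last 3 were steady within each experiment, with means that differed between them. With TMM the SD over the 12 libraries went from 0.0863 to 0.0776 for ERF74035 and from 0.106 to 0.0920 for ERF56583-ERC51143. For ERF63150-ERC33927 it rose from 0.0975 to 0.170. Whether the means of these 3 differ with TMM was not tested. The PEG list held 53 members and the EUE list 50. With a minimum of 50 CPM in place of 20 the lists had 32 IDs in common. That minimum leaves fewer candidates, 2507 in place of 6965 over the 12 libraries. Lists of 200 share more IDs by size alone in a smaller pool, so the 2 counts cannot be set against each other.

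The selected lines were compared with their controls in 1 edgeR fit over all 36410 tested IDs, to give the members' differences a background. For the EUE epiline against the EUE control, edgeR's quasi-likelihood test with Benjamini-Hochberg adjustment called 0% of the tested IDs and 0 of the 200 members. Unadjusted p-values under 0.05 were found for 1519 tested IDs and 0 members. On log2(CPM + 0.5) with column totals, 88 members were higher in the epiline and 112 lower, with a median difference of -0.0115, and with TMM 26 were higher and 174 lower, with a median of -0.07. On column totals the groups did not overlap for 8 members, 4% beside 6.81% of all tested IDs. Of the 8, 1 was higher and 7 lower, beside 5.11% and 1.70% of the tested IDs. A replicate block raised edgeR's count to 69 IDs and DESeq2 without it called 382, among which were 0 members in either case. Unadjusted p-values under 0.05 then numbered 3089 with the block, 1 of them a member's. Without EUE epiline replicate 1, 205 IDs and again 0 members were called.

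For PEG-1 and PEG-2, which share their control libraries, edgeR again called 0% of the tested IDs and 0 members. Unadjusted p-values under 0.05 were found for 1310 tested IDs in PEG-1 and 684 in PEG-2, and for 0 members in both. DESeq2 called 138 and 15 IDs, of which 0 were members. With the replicate block the unadjusted counts were 3676 and 2169, again with 0 members. With column totals 117 members were higher in PEG-1 and 83 lower, and 119 were higher in PEG-2 and 81 lower, and with TMM the counts were 76 and 124 in PEG-1 and 103 and 97 in PEG-2. Groups of 2, read on column totals, did not overlap for 72 members in PEG-1, 36% beside 30.6% of tested IDs, and for 50 in PEG-2, 25% beside 26.0%. Of these, 47 were higher in PEG-1 and 25 lower, beside 18.4% and 12.2% of the tested IDs, and 35 were higher in PEG-2 and 15 lower, beside 13.9% and 12.2%. With column totals, 1 member differed by more than 1.2 times between a selected line and its control: ERF82166-ERC45112, named for this after its values were seen, was at 37.1 and 42.4 CPM in the PEG control and 47.2 and 49.0 CPM in PEG-1, a ratio of 1.21. The size of the members' largest difference depends on the scaling. On the log2 scale it was 0.28 in PEG-1 and 0.19 in the EUE epiline with column totals. It was 0.24 and 0.25 with TMM, and 0.23 and 0.28 with upper-quartile scaling.

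Between the control lines, where line and experiment cannot be told apart, edgeR called 2.94% of the tested IDs, 1072 in number, and 0 members. Of the 1072, 659 were higher in the PEG control and 413 lower, and with the replicate block 759 were higher and 840 lower. The count over all tested IDs was 300 without PEG control replicate 2, 662 without EUE control replicate 1, 700 without EUE control replicate 3 and 2264 in DESeq2, and members called were 0 in each of these. An unadjusted p under 0.05 was seen for 5800 tested IDs and 1 member, ERF95293-ERC59782, named for this after its values were seen, whose log2 difference was 0.35 with an SE of 0.16 (adjusted p = 0.306 in edgeR). On column totals the groups did not overlap for 32 members, 16% beside 30.4% of tested IDs. Of the 32, 13 were higher in the PEG control and 19 lower, beside 11.7% and 18.8% of the tested IDs. Over all members the direction depends on the scaling. With column totals 78 were higher in the PEG control and 122 lower, with a median difference of -0.0277 on the log2 scale. With TMM 175 were higher and 25 lower, with a median of 0.0919. Because the rule used all 12 libraries, the members were chosen to differ little in these same comparisons, and their count of 0 was read no further. The edgeR standard errors of the members, with medians of 0.157 to 0.193 on the log2 scale, draw on the spread of all IDs. In each comparison their median exceeded the median size of the members' own differences, 0.0519 to 0.0909 with TMM. Single differences were larger, up to the 0.35 of ERF95293-ERC59782.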

How the data were processed

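Polysomal RNA of 12 libraries was sequenced at the Beijing Genome Institute, per the labels' protocols. The authors deposited raw read counts per gene ID, not normalized, and GSNAP and SAMtools are the tools in the submitters' processing notes; build, annotation, counter and strand setting were not given in the sources used here, so reads of near-identical copies or overlapping genes may be split. Totals ran from 36210542 to 42696798. All columns matched a sample (0 of other samples). All values were even, so read pairs, 2 counts each, were taken as the unit of counting error; at 20 CPM the smallest library holds 362 pairs.

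The members and lists were chosen with earlier results of these data known. The rule was applied as stated in the opening, with Python 3.11.15. The test across all IDs was edgeR 4.0.16 in R 4.3.3 (TMM, filterByExpr with a minimum count of 10, quasi-likelihood F-test, 5 group means, Benjamini-Hochberg, threshold 0.05); DESeq2 1.42.0 was an alternative tool. Both the rule and the fit were run on simulated data as a check of the code. The planted IDs stood further from the rest than the members do, so these runs say nothing about the members. Lone libraries left in a group were assumed to vary like the other groups.

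Same-numbered EUE libraries deviated together over the candidates (3 pairs, each with r above 0.1), a sign of pairing from the data and not the labels. The edgeR fit reported first and the overlap counts ignore it, and the fit with the number as a block is an alternative, given beside the counts it moves. Same-numbered PEG libraries also deviated together over the candidates, with r from 0.56 to 0.74. With 2 libraries a group, replicate 2 mirrors replicate 1, so different numbers give no separate comparison there. Replicates differed beyond sampling noise: the chi-square per ID on read pairs was 14.4 to 46.9 over tested IDs and 4.72 to 9.12 over the members. Whether plants were grown separately is not stated, so p-values measure the spread between these libraries.

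Named IDs were, by a rule, the 5 steadiest members, those with the highest and lowest mean, ranks 199 to 202, the largest and most negative PEG minus EUE difference, the steadiest single ERF and ERC member, and the largest and smallest spread between replicates. IDs outside it are said to be so. Scaling effects on directions, the lists of all 4 scalings and the overlap of the 2 experiments were added after seeing the data.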

Additional observations from a re-analysis of the deposited data

Results flagged for a closer look

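ERF69451, the second ID outside the list, was singled out because its libraries moved in opposite directions in lines of the 2 experiments. On log2(CPM + 0.5) it fell by 0.142 in the EUE epiline, at 41.9, 41.1 and 38.5 CPM against 47.4, 42.5 and 44.4 CPM in the EUE control, and it differed by 0.0640 in PEG-2, at 46.4 and 46.0 CPM against 45.7 and 42.6 CPM in the PEG control. On column totals all libraries of each line lay on 1 side of their control. In PEG-2 this was by little, with the lower library at 45.95 CPM and the higher control library at 45.69 CPM. Whether the sides hold with TMM was not tested. The difference between the lines was not tested, and groups this small lie apart often, for 6.81% of tested IDs in the EUE epiline and 26.0% in PEG-2.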

How the results depend on the processing

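Of the 200 members, 61 were chosen again with TMM, 57 with upper-quartile scaling, 56 with DESeq2 size factors, 67 with a minimum of 50 CPM, 85 with the SD within groups, 35 with the replicate number as a replicate block, 53 from the PEG and 50 from the EUE libraries only, and 147 to 179 with each library left out. The 133 members with a mean below 50 CPM could not be chosen with that minimum, and every other member was. For the other settings the cause was not tested, except that those on 1 experiment or 11 libraries read fewer libraries. Other pseudocounts, a minimum of 10 CPM, the coefficient of variation and other numbers of abundant IDs left out kept 144 to 197.

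Members called were 0 in all 4 comparisons under every alternative run. IDs called between the EUE groups were 0, but 27 without a filter, 69 with the replicate block, 382 in DESeq2 and 0 to 205 with each library left out. In PEG-1 the count was 0, but 1 with the replicate block and 138 in DESeq2, and 0 with each library left out. In PEG-2 it was 0, but 15 in DESeq2, and 0 with each library left out. Between the controls 1072 became 2264 in DESeq2, and 300 to 1067 with each library left out. The replicate block moved the lower calls between the controls from 413 to 840 and the higher ones from 659 to 759. It also raised the unadjusted counts, from 1519 to 3089 for EUE, 1310 to 3676 for PEG-1 and 684 to 2169 for PEG-2.

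Members higher in PEG were 101 with column totals and 194, 198 and 196 with TMM, upper-quartile scaling and DESeq2 size factors. The IDs common to the lists of both experiments were 10, and 7 to 14 with each library left out. They were 32 with a minimum of 50 CPM, where fewer candidates make a larger overlap likely by size alone. With each library left out, the SD in the other experiment was 0.154 to 0.172 for the PEG list and 0.127 to 0.143 for the EUE list, and the mean summed level 14939 to 15025 CPM. The smaller deviation in 12 of 12 left-out libraries held with TMM and with a pseudocount of 2. Depth limits the low members most: for the one with the lowest level, read-pair counting alone gives an SD of 0.0738.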

Other observations

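Outside the limits of the rule, 5 of the 100 most abundant IDs also had an SD of at most 0.110. Over these 100 the SD ran from 0.0947 to 0.766 with a median of 0.204, where counting read pairs would give a median of 0.00701.

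IDs with neighbouring numbers were read as well, since the rule did not use the number. Candidates whose ERF number is next to that of a member, 57 IDs that are not members, had a median SD of 0.263, and the 55 such neighbours by ERC number 0.261, against 0.286 over all candidates. The ranges of the middle part of the values, 0.195 to 0.422 and 0.173 to 0.468, overlapped that of the candidates, 0.191 to 0.449. Members with consecutive numbers formed 2 pairs by ERF and 2 by ERC number.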
